A study of Rattus norvegicus with 12 samples.

Results

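The Slc25 genes encode the mitochondrial carrier family, the transport proteins that move nucleotides, carboxylates, amino acids, cofactors and metal ions across the inner mitochondrial membrane. Members were all genes of the array's platform table whose symbol is Slc25a followed by a number, each represented by its brightest probe, and no measured change entered the choice. There were 37 such genes, on 41 probes, among 14497 genes with a probe of their own. The tests ran on 10174 genes whose mean level over all arrays was at or above 6.07 log2, the 40th percentile of all probes, and 32 of the 37 members were among them. The other 5 were Slc25a27 (mean 5.93 log2), Slc25a35 (5.74), Slc25a41 (5.56), Slc25a29 (5.50) and Slc25a54 (4.56), and the members just inside the limit were Slc25a34 (6.10) and Slc25a14 (6.16). Slc25a12 and Slc25a13, the aspartate and glutamate carriers, were not analysed here.

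Carriers of this family are membrane proteins that never enter the endoplasmic reticulum. Their messages are translated on cytosolic ribosomes, the finished chains pass the outer mitochondrial membrane through the TOM pore, small TIM chaperones escort them across the intermembrane space, and the TIM22 complex inserts them into the inner membrane. In liver they link the cytosol to the urea cycle, fatty acid oxidation, gluconeogenesis, lipogenesis and heme synthesis. A few members sit elsewhere: Slc25a17 lies in the peroxisomal membrane, and Slc25a46 in the outer mitochondrial membrane.

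The livers were those of fetal Sprague Dawley rats, collected on day 19 of a gestation of 21 days. Dams either ate freely (fed, the control) or had no food for 48 hr from day 17 (fasted), a treatment the submitters used to restrict growth in the womb. RNA from whole liver (total) and RNA from polysomes, messages carrying several ribosomes and separated on sucrose gradients, were hybridised to Affymetrix Rat Gene 1.0 ST arrays. Each diet and fraction had 3 of the 12 arrays, and 3 dams are named per diet. No genotype differed between groups. Polysome RNA was taken from pooled preparations with acid phenol, and total RNA from frozen tissue with guanidine and cesium chloride, so the fraction and the extraction cannot be told apart. The labels call the arrays biological replicates but tie none to a dam or litter, so p-values measure the spread between these samples.

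Levels are log2(intensity + 1), changes are differences of such levels ± the standard error (SE) of limma's fit with n = 3 arrays per group, and adjusted p is limma's after Benjamini-Hochberg adjustment over the 10174 genes. The number of arrays limits the precision: a typical change had an SE of 0.0945 log2 (median over genes). A probe's brightness depends on its sequence, so levels are compared between arrays and never between genes. Median intensities of the arrays ran from 101.3 to 108.3. Fed polysome 1 and fasted polysome 2 had medians of 106.4 and 106.3, close to the total RNA arrays, whereas the other polysome arrays lay between 101.3 and 104.3, and the fasting results in polysome RNA are therefore also given without these 2 arrays. Hepatocyte markers had a summed level of 16.48 to 16.74 log2 and red cell precursor markers of 15.95 to 16.05 in every array. The fetal liver is also the place where red cells are made.

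The first question was how fasting of the dam altered the carrier messages of the fetal liver. Of 32 members tested, 1 passed the threshold in polysome RNA, where 2.01% of all genes passed and 1.59% passed as higher, and 0 passed in total RNA, where 1.03% of all genes passed. The member that rose was Slc25a17, the peroxisomal carrier of coenzyme A, FAD and NAD. At an unadjusted p under 0.05 the members numbered 6 of 32 in each fraction, beside 16.2% of all genes in total RNA and 20.9% in polysome RNA. Values lay above 0 for 19 of 32 members in each fraction, beside 50.2% (total) and 54% (polysome) of all genes. The median change of the members was 0.08 log2 in total RNA and 0.04 in polysome RNA, beside 0.00 and 0.02 for all genes. These medians moved with single arrays. The total RNA median was 0.045 without fed total 2. The polysome median was 0.004 without fed polysome 3, under the 0.017 of all genes, and 0.063 without fed polysome 1, 0.086 without fasted polysome 2 and 0.091 without these last 2 arrays together. The changes of single members spanned -0.32 to 0.38 log2 in total RNA and -0.30 to 0.36 in polysome RNA, so none reached 1.5-fold in either direction.

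**Figure D1:**
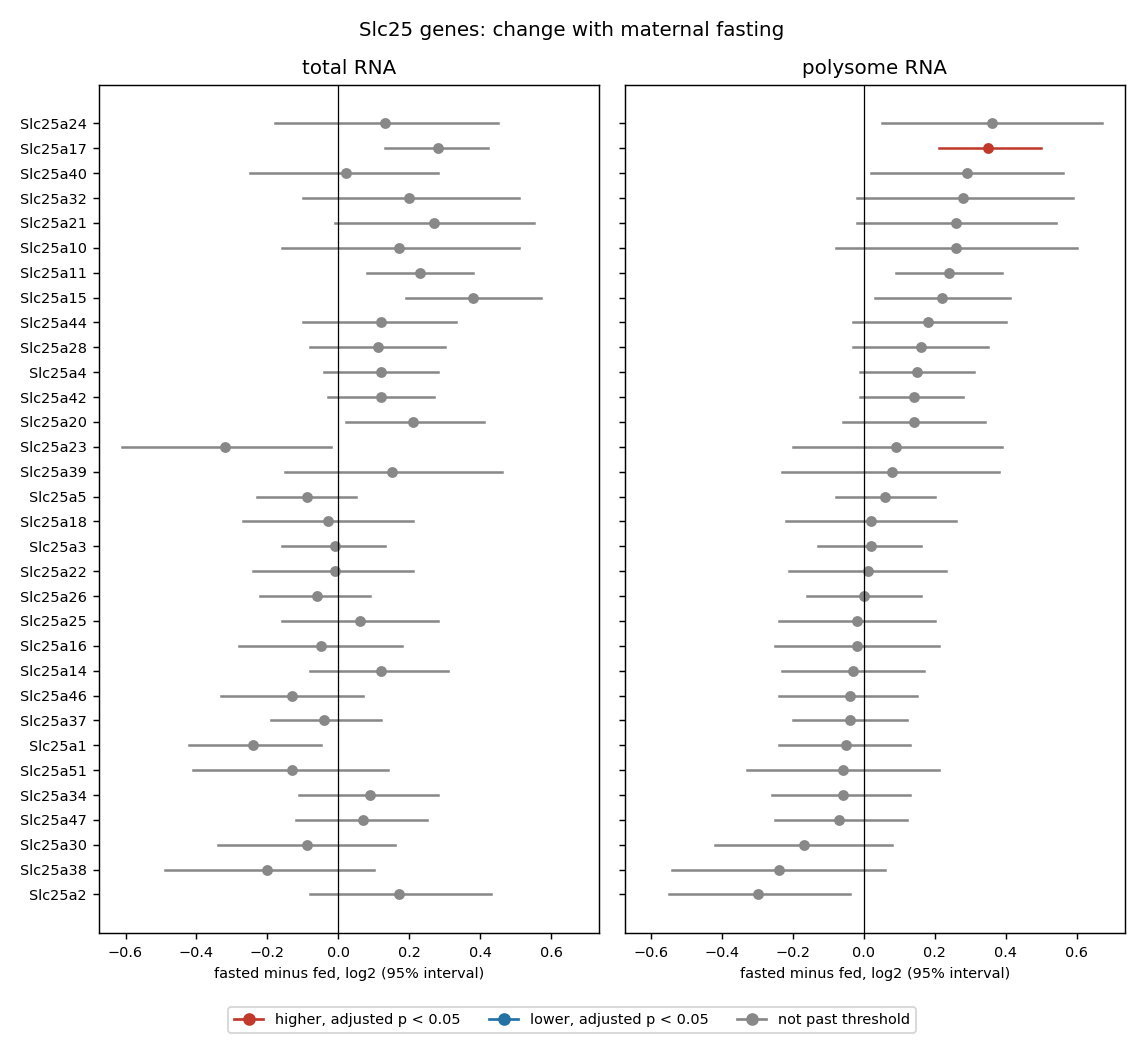
Change of each of the 32 tested Slc25 genes with maternal fasting in total RNA (left) and polysome RNA (right), as log2 of fasted minus fed with the 95% interval of the limma fit (3 arrays per group). Slc25a17 in polysome RNA, at 0.35, is the single coloured point, and the other intervals belong to genes not past the threshold.

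The promoters of Slc25a17, Slc25a15, Slc25a11 and Slc25a42 are shown because these 4 members had fasted arrays above fed arrays in both fractions. For Slc25a42 in total RNA the groups were barely apart, since the nearest arrays both rounded to 9.57 log2. The sequences are from RefSeq on the build GRCr8 and run 5′ to 3′ on the gene's strand from 250 bases before to 50 bases after the start site. Capitals mark the CCAAT box (CCAAT) and the GC box (GGGCGG), on either strand. The windows are chr7:114767114-114767413 on the minus strand for Slc25a17, chr16:76336620-76336919 on the plus strand for Slc25a15, chr10:55859011-55859310 on the minus strand for Slc25a11 and chr16:19247724-19248023 on the plus strand for Slc25a42. For Slc25a15 and Slc25a42 the start site used lies inside the annotated span of the gene. The span of Slc25a42 begins at 19247874, within its window. That of Slc25a15 begins at 76334037, before its whole window, so this window does not cover the first annotated base of the gene.
Slc25a17: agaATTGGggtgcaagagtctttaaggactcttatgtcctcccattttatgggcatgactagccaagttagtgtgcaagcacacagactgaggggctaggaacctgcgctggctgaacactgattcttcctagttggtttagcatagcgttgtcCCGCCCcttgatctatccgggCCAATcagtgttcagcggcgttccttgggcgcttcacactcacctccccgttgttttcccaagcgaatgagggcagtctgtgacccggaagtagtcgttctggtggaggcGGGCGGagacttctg
Slc25a15: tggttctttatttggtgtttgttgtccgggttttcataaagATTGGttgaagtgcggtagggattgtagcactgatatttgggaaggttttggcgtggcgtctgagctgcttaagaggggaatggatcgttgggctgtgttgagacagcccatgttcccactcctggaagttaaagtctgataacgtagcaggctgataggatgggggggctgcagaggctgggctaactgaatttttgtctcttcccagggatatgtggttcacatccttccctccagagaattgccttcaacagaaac
Slc25a11: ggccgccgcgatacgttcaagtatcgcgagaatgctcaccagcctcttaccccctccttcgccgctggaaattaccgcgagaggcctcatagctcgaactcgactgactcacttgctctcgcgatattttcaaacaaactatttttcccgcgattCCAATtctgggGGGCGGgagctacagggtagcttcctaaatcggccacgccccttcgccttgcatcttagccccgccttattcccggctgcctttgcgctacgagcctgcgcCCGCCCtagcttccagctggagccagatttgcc
Slc25a42: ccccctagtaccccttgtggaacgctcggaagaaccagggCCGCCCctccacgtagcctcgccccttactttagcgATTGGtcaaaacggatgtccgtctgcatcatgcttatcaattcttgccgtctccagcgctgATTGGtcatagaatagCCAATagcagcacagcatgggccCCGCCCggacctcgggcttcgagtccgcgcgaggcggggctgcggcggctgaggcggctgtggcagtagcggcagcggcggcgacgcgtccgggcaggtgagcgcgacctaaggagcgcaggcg
A CCAAT box is present in all 4 windows and a GC box in those of Slc25a17, Slc25a11 and Slc25a42 but not of Slc25a15, and a match is a description of the letters, not of a binding site. RefSeq promoters were matched for 32 of the 37 members, tested or not. A GC box was present in 23 of the 32, beside 34.9% of all 27457 rat promoters of the same length, and a CCAAT box in 18 of the 32, beside 37.7%. The TATA box (TATAAA) was found in 1 of the 32, that of Slc25a38, beside 14.3% of all promoters. The median GC content was 60.3% in the members and 52.3% in all promoters. The nuclear receptor half-site AGGTCA, bound in tandem by fasting-responsive receptors such as PPARα, was found in 6 of the 32 (15.7% of all promoters) and in none of the sequences above. Its tandem form AGGTCANAGGTCA, which contains the half-site, was found in 0 of the 32 and in 0.0583% of all promoters. An exact match is so rare that its absence from 32 windows does not set the members apart. All motifs were searched on both strands.

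Slc25a17 measured 10.16, 10.16 and 10.22 log2 in the 3 fed polysome arrays and 10.61, 10.43 and 10.54 in the 3 fasted ones. Every fasted array lay above every fed array, and the gene rose 1.28-fold (0.35 ± 0.067 log2, limma adjusted p = 0.0252). In total RNA fed arrays read 10.41, 10.37 and 10.33 and the fasted arrays 10.68, 10.65 and 10.62. These groups did not overlap either, and the change of 0.28 ± 0.067 log2 missed the threshold (limma adjusted p = 0.0628). The call in polysome RNA was lost when the 6 polysome arrays were fitted alone (limma adjusted p = 0.118) and without fed polysome 2 (0.0900), fed polysome 3 (0.0649), fasted polysome 1 (0.111) or fasted polysome 3 (0.109), while the change stayed between 0.31 and 0.40 log2 over all alternatives.

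Macrophage markers were also higher after fasting. Their summed level in polysome RNA was 11.68 to 11.70 log2 in fasted arrays and 11.39 to 11.51 in fed arrays, and in total RNA 12.23 to 12.39 against 12.06 to 12.13. All 6 macrophage markers had values above 0 in both fractions, beside 50.2% (total) and 54% (polysome) of all genes. In polysome RNA 1 passed the threshold (Cd68, 0.41 ± 0.081 log2, limma adjusted p = 0.0263), beside 2.01% of all genes. In total RNA 0 passed and 3 had an unadjusted p under 0.05, beside 16.2% of all genes. Endothelial markers summed to 12.35 to 12.38 in fasted and 12.12 to 12.22 in fed total RNA, and 2 of the 5 on the array passed there, Pecam1 (0.43 ± 0.089, limma adjusted p = 0.0428) and Esam (0.40 ± 0.081, limma adjusted p = 0.0420). Cdh5 lay below 0 there without passing (-0.10 ± 0.063). In polysome RNA the endothelial sums were 11.63 to 11.79 in fasted and 11.53 to 11.61 in fed arrays, with 0 of the 5 past the threshold. Markers of the pancreas, a neighbouring organ, summed to 9.39 to 11.51 in fed total RNA and 9.32 to 9.36 in fasted total RNA, and 1 of the 5, Prss1, lay under the filter at a mean of 5.10. Cpa1, a pancreatic carboxypeptidase, fell in total RNA (-1.98 ± 0.43 log2, limma adjusted p = 0.0487). The other pancreatic markers tested there did not pass and went both ways. Ctrb1 measured -1.80 ± 0.53, Cela1 -0.02 ± 0.10 and Cpb1 0.73 ± 0.26 log2. In polysome RNA the pancreatic sums overlapped, at 9.0 to 9.72 in fed and 9.19 to 9.5 in fasted arrays. Megakaryocyte markers, 3 of 5 on the array, summed to 11.61 to 11.69 in fed and 11.13 to 11.44 in fasted polysome RNA without overlap, with 0 past the threshold in limma's test and 1 at an unadjusted p under 0.05 (Pf4 -0.45 ± 0.13, limma adjusted p = 0.0879), and their total RNA sums overlapped. Neutrophil sums overlapped between the diets in both fractions. The part of these cells in the carrier values was not tested, and in a whole organ fewer cells of a type and less RNA per cell cannot be told apart.

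Carriers of carboxylates and acylcarnitine showed values above 0 for 4 of 5 members in each fraction, beside 50.2% (total) and 54% (polysome) of all genes. In limma's test 0 passed the threshold. At an unadjusted p under 0.05 there were 3 in total and 1 in polysome RNA, beside 16.2% and 20.9% of all genes. Slc25a11, the 2-oxoglutarate carrier of the malate-aspartate shuttle, measured 12.18, 12.17 and 12.13 log2 in fed total RNA and 12.42, 12.43 and 12.34 in fasted total RNA. In polysome RNA it measured 12.33, 12.28 and 12.34 in fed arrays and 12.65, 12.46 and 12.55 in fasted arrays. The fasted arrays were higher without overlap in both fractions, by 0.23 ± 0.068 log2 (limma adjusted p = 0.114) and 0.24 ± 0.068 (limma adjusted p = 0.0795). Slc25a20, the carnitine and acylcarnitine carrier that brings fatty acyl groups to β-oxidation, read 10.63, 10.59 and 10.67 in fed and 10.84, 10.83 and 10.86 in fasted total RNA. Its groups did not overlap there (0.21 ± 0.092, limma adjusted p = 0.275), but they did in polysome RNA (0.14 ± 0.092, limma adjusted p = 0.410). The enzyme before it on this route, Cpt1a, which makes the acylcarnitines, rose by 1.27 ± 0.16 log2 in total RNA (limma adjusted p = 0.00289) and 1.07 ± 0.16 in polysome RNA (limma adjusted p = 0.0126).

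Slc25a1, the citrate carrier that supplies the cytosol with carbon for fatty acid synthesis, was the carboxylate carrier with a value below 0. It read 9.28, 9.27 and 9.32 log2 in fed and 9.05, 9.0 and 9.10 in fasted total RNA. The fasted arrays lay below the fed ones without overlap, and the change of -0.24 ± 0.086 log2 did not pass (limma adjusted p = 0.188). The gene's other probe gave a smaller change of -0.13 ± 0.085 in total RNA. In polysome RNA, at 9.71, 9.51 and 9.60 in fed and 9.67, 9.37 and 9.62 in fasted arrays, the groups overlapped (-0.05 ± 0.086, limma adjusted p = 0.787). Acly, which splits the exported citrate, fell by 0.35 log2 in total RNA (-0.35 ± 0.074, limma adjusted p = 0.0431) and by 0.33 in polysome RNA (-0.33 ± 0.074, limma adjusted p = 0.0433). The dicarboxylate carrier Slc25a10 (0.17 and 0.26 log2 in total and polysome RNA) and the oxoadipate carrier Slc25a21 (0.27 and 0.26) had wider errors of 0.16 and 0.13 and did not pass.

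Among carriers of amino acids and their derivatives, 0 of 9 tested members passed limma's test in either fraction. At an unadjusted p under 0.05 there were 1 in total and 3 in polysome RNA, beside 16.2% and 20.9% of all genes. The largest change of any member in total RNA was that of Slc25a15, the ornithine carrier of the urea cycle. It read 10.50, 10.47 and 10.29 log2 in fed and 10.83, 10.91 and 10.67 in fasted total RNA, a difference without overlap of 0.38 ± 0.088 that just missed the threshold (limma adjusted p = 0.0560). In polysome RNA the fed arrays read 10.53, 10.44 and 10.61 and the fasted arrays 10.78, 10.82 and 10.65, again without overlap (0.22 ± 0.088, limma adjusted p = 0.177). Slc25a15 passed in total RNA with trend and robust priors (limma adjusted p = 0.0380) and without fasted total 3 (0.0487). RefSeq lists 1 pseudogene entry of it, whose message this probe might also read. Of 21 enzymes that handle the carriers' substrates, Cpt1a was the 1 that rose and Acly the 1 that fell in each fraction. The urea cycle enzyme Asl was at 0.65 ± 0.15 log2 in total RNA and 0.59 ± 0.15 in polysome RNA (limma adjusted p = 0.0560 and 0.0561), while Cps1, the first enzyme of that cycle, was at 0.14 ± 0.075 and -0.04 ± 0.075 (limma adjusted p = 0.403 and 0.790). The other enzymes of the cycle went both ways and did not pass. Ass1 measured 0.16 ± 0.098 and 0.24 ± 0.098 in total and polysome RNA. Otc measured -0.18 ± 0.092 and 0.01 ± 0.092, and Arg1 -0.06 ± 0.091 and -0.20 ± 0.091.

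Slc25a2, the second ornithine carrier, went the other way in polysome RNA. It read 6.99, 7.45 and 7.22 log2 in fed and 6.74, 7.05 and 6.99 in fasted arrays, which overlapped (-0.30 ± 0.12, limma adjusted p = 0.178), and its total RNA value was 0.17 ± 0.12 (limma adjusted p = 0.529). The remaining values of this group lay between -0.24 for Slc25a38, the glycine carrier of heme synthesis, and 0.29 for Slc25a40 in polysome RNA, a relative of the glutathione carrier Slc25a39. Slc25a22, a glutamate carrier, measured -0.01 ± 0.10 and 0.01 ± 0.10 log2 in total and polysome RNA.

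Of 10 tested carriers of adenine nucleotides, phosphate and cofactors, Slc25a17 was the 1 that passed. The ADP/ATP carriers that export mitochondrial ATP differed by less than 0.2 log2: Slc25a4, the heart and muscle form, by 0.12 ± 0.075 in total and 0.15 ± 0.075 in polysome RNA, and Slc25a5, the form of proliferating tissue, by -0.09 ± 0.066 and 0.06 ± 0.066. The phosphate carrier Slc25a3 differed by -0.01 ± 0.066 and 0.02 ± 0.066 log2, and the 95% intervals reached no further than 0.16 in size. RefSeq lists 9 pseudogene entries for Slc25a5, 2 for Slc25a3 and 1 for Slc25a4, so their probes may read more than 1 gene. Slc25a42, the mitochondrial coenzyme A carrier, had fasted arrays above fed arrays in both fractions, by 0.12 ± 0.068 and 0.14 ± 0.068 log2 (limma adjusted p = 0.429 and 0.277). In total RNA its highest fed and lowest fasted array both rounded to 9.57, so the groups were barely apart. Among the calcium-regulated ATP-Mg/phosphate carriers, Slc25a24 had the largest value of any member in polysome RNA (0.36 ± 0.15, limma adjusted p = 0.181) and Slc25a23 the lowest in total RNA (-0.32 ± 0.14, limma adjusted p = 0.273), both with overlapping arrays. The other probes of these genes gave 0.20 ± 0.13 and -0.19 ± 0.14 in the same comparisons.

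The iron carriers, which feed heme and iron-sulfur cluster synthesis, varied little. Slc25a37, mitoferrin 1, which serves red cell precursors, stayed between 13.09 and 13.29 log2 in all 12 arrays and measured -0.04 ± 0.073 in both fractions. Slc25a28, mitoferrin 2, was at 0.11 ± 0.087 in total and 0.16 ± 0.087 log2 in polysome RNA (limma adjusted p = 0.586 and 0.315). The liver carrier Slc25a47 measured 0.07 ± 0.086 in total and -0.07 ± 0.086 in polysome RNA.

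Counted by arrays, 7 of 32 members had all fasted total arrays above all fed ones (Slc25a4, Slc25a11, Slc25a15, Slc25a17, Slc25a20, Slc25a24 and Slc25a42), beside 12.9% of all genes, and 2 had them below (Slc25a1 and Slc25a5), beside 11.9%. Of the 7, Slc25a42 and Slc25a24 were barely apart. The highest fed and lowest fasted array of Slc25a24 read 8.76 and 8.77 log2, and its other probe changed by -0.01 ± 0.13. In polysome RNA 5 members lay above without overlap (Slc25a11, Slc25a15, Slc25a17, Slc25a21 and Slc25a42), beside 12.4% of all genes, and 0 lay below, beside 8.38%. Slc25a11, Slc25a15, Slc25a17 and Slc25a42 were in both sets, which is 57.1% of the 7 and 80% of the 5. Among all genes 478 were in both sets, 36.5% of those of total RNA and 37.8% of those of polysome RNA. Without fed polysome 1 and fasted polysome 2, 4 members passed in polysome RNA: Slc25a17, Slc25a11 (0.29 log2, limma adjusted p = 0.0311) and the branched-chain amino acid carrier Slc25a44 (0.35, limma adjusted p = 0.0327) rose, and Slc25a2 fell by 0.47 (limma adjusted p = 0.0294). In that fit 848 genes were called higher and 415 lower among all genes, so the number of calls grew across the whole array.

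**Figure D2:**
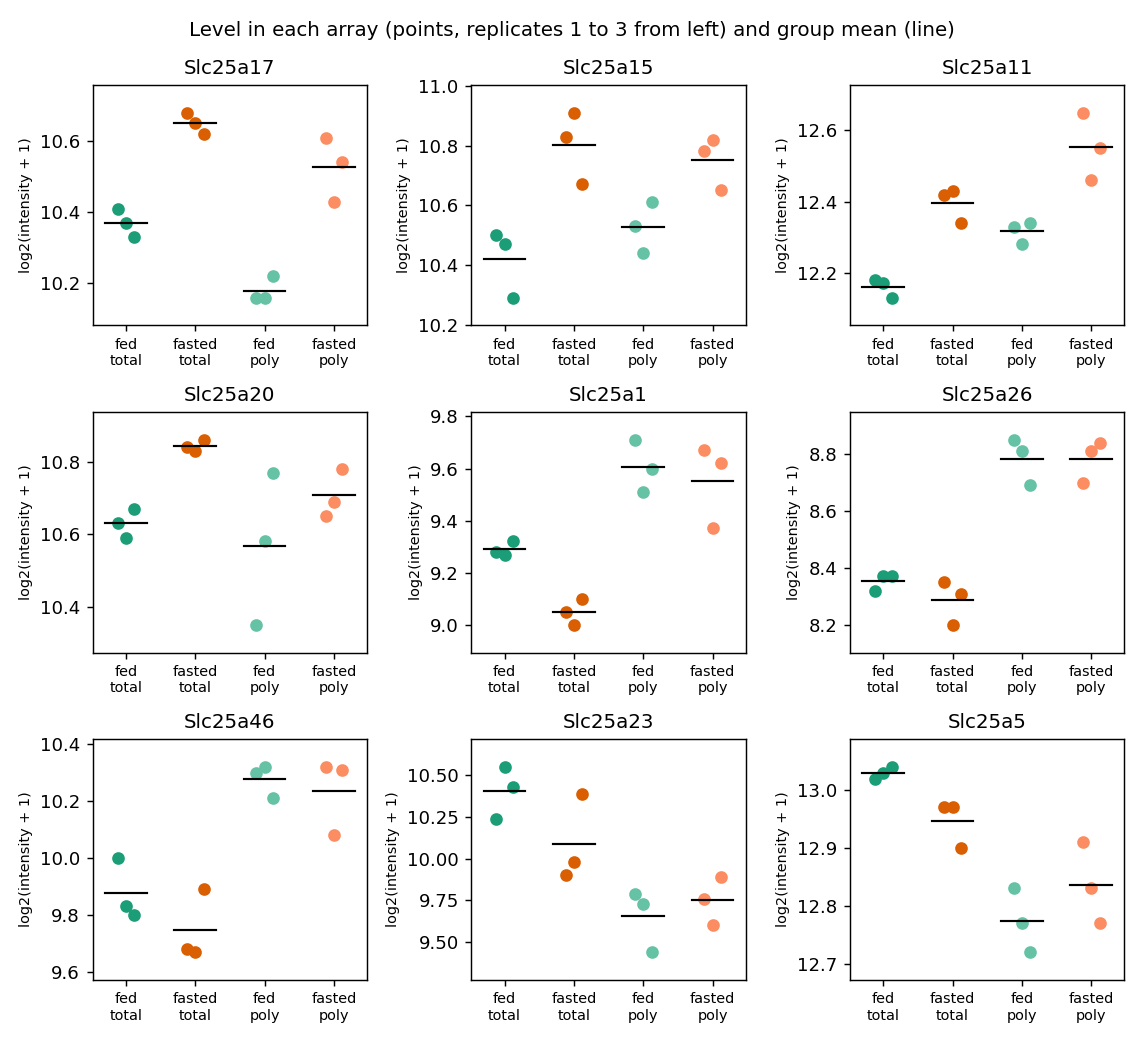
Level of 9 Slc25 genes in each of the 12 arrays, as log2(intensity + 1) by group; points are arrays (replicates 1 to 3 from left), lines are group means, and each panel has its own vertical scale. Slc25a17, Slc25a15 and Slc25a11 lie higher in fasted than in fed arrays of both fractions, and Slc25a26, Slc25a46 and Slc25a1 lie higher in polysome than in total RNA of both diets.

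The next comparison asked whether fasting altered polysome RNA otherwise than total RNA, as the difference between the fasting effects. Of the 32 members 0 passed, and 1 had an unadjusted p under 0.05. Among all genes 0 passed in limma's test (0% called) and 549, or 5.4%, had an unadjusted p under 0.05. That member was Slc25a2, whose fasting effect was 0.47 log2 lower in polysome than in total RNA (-0.47 ± 0.17, limma adjusted p = 0.856). Slc25a23 (0.41 ± 0.19, limma adjusted p = 0.856) and Slc25a40 (0.27 ± 0.18, limma adjusted p = 0.873) followed in size, but the other probe of Slc25a23 gave -0.02 ± 0.19. For Slc25a17 the difference was 0.07 ± 0.095 log2, with a 95% interval of -0.13 to 0.28, and for Slc25a15 it was -0.16 ± 0.12, with an interval of -0.43 to 0.10.

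The last comparison set polysome against total RNA within each diet. The arrays were normalised to each other by the authors, so a difference says how a message stood in the polysome fraction relative to the other messages. Array medians still differed, and centring them moved the median difference of all genes from 0.042 to 0.070 in fed and from 0.054 to 0.096 in fasted dams. In fed dams 13 of 32 members passed (40.6%), beside 43.5% of all genes: 10 were higher in polysome RNA, where 24.1% of all genes were higher, and 3 were lower, where 19.4% were lower. In fasted dams 8 of 32 passed (25%), beside 43.7% of all genes: 8 were higher, beside 25.5%, and 0 were lower, beside 18.2%. With quantile normalization the fasted count was 7 higher and 1 lower, Slc25a23. The median difference of the members was 0.10 log2 in fed and 0.08 in fasted dams, beside 0.04 and 0.05 for all genes. The fed median was 0.048 without fed polysome 1 and 0.152 without fed polysome 2, and the fasted median was 0.042 with quantile normalization, beside 0.041 for all genes. By arrays, 12 members had all fed polysome arrays above all fed total arrays, beside 29.4% of all genes, and 4 had them below, beside 23.5%. In fasted dams these numbers were 14, beside 31.1%, and 3, beside 21.5%. All 8 members called higher in fasted dams were also among the 10 called in fed dams, and 80% of those 10 recurred, beside 80.2% of all genes called higher in fed dams.

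**Figure D3:**
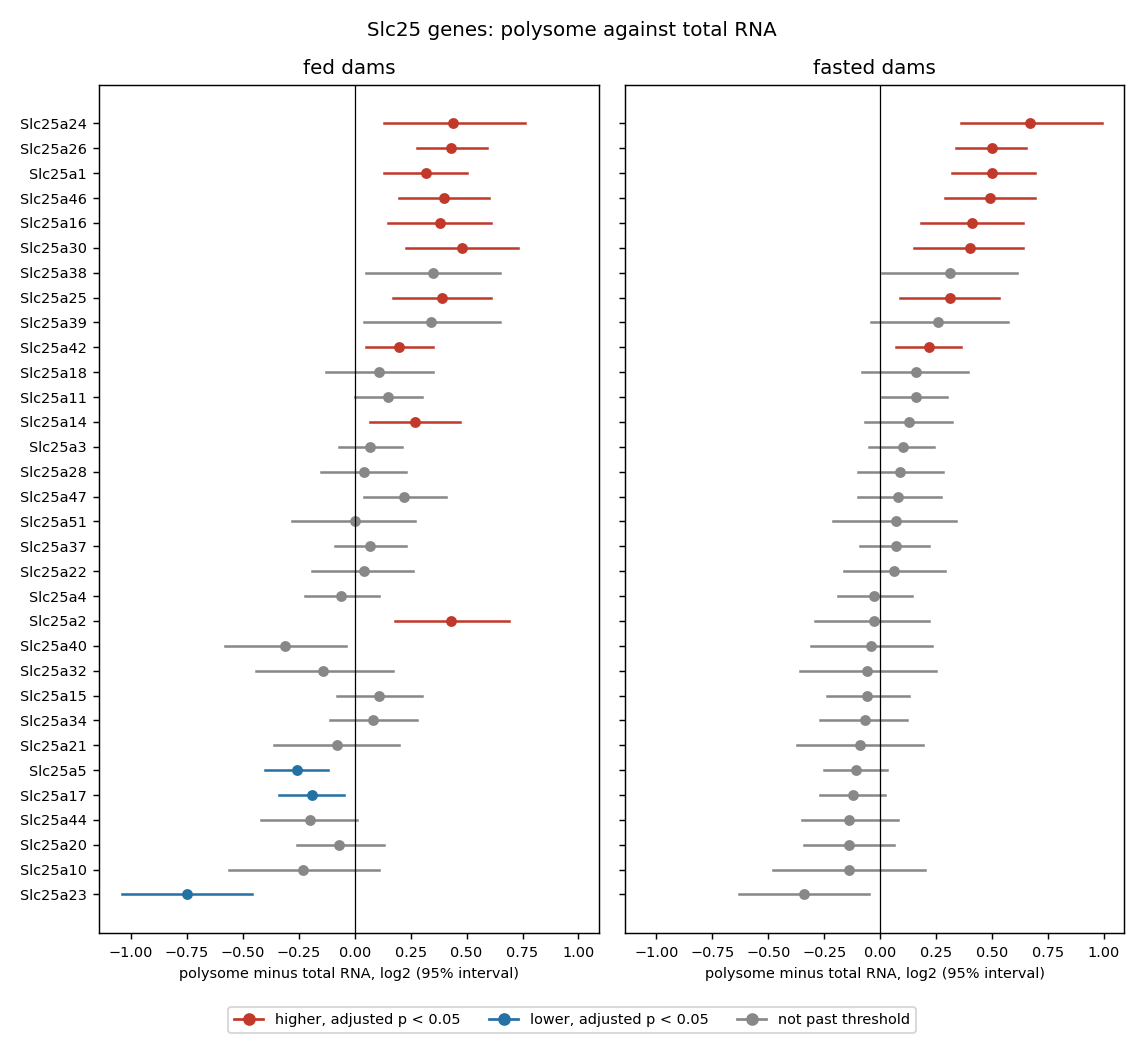
Polysome minus total RNA of each of the 32 tested Slc25 genes in fed (left) and fasted dams (right), in log2 with the 95% interval of the limma fit (3 arrays per group). Red points, 10 in fed and 8 in fasted dams, passed as higher; blue points, 3 in fed dams, passed as lower; grey points did not pass.

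The members higher in polysome RNA of both diets came from most roles. Slc25a26, which brings S-adenosylmethionine, the methyl donor, into mitochondria, had the smallest p. It measured 8.32, 8.37 and 8.37 log2 in fed total and 8.85, 8.81 and 8.69 in fed polysome RNA, and 8.35, 8.20 and 8.31 in fasted total and 8.70, 8.81 and 8.84 in fasted polysome RNA. The fractions did not overlap, and polysome RNA was higher by 0.43 ± 0.073 in fed (limma adjusted p = 0.000383) and 0.50 ± 0.073 in fasted dams (limma adjusted p = 0.000137). Slc25a46, an outer membrane protein of mitochondrial division and lipid exchange, measured 10.00, 9.83 and 9.80 in fed total, 10.30, 10.32 and 10.21 in fed polysome, 9.68, 9.67 and 9.89 in fasted total and 10.32, 10.08 and 10.31 in fasted polysome RNA. Again no array overlapped (0.40 ± 0.092 and 0.49 ± 0.092, limma adjusted p = 0.00319 and 0.000806). For Slc25a1, the citrate carrier, whose arrays are given above, polysome RNA was higher by 0.32 ± 0.086 and 0.50 ± 0.086 (limma adjusted p = 0.00910 and 0.000400). Its other probe differed the same way, by 0.19 ± 0.085 and 0.28 ± 0.085.

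Slc25a16, a carrier tied to coenzyme A, measured 10.09, 9.96 and 10.05 log2 in fed total and 10.42, 10.52 and 10.29 in fed polysome RNA, and 9.95, 9.83 and 10.16 in fasted total and 10.43, 10.19 and 10.55 in fasted polysome RNA. The fractions did not overlap in either diet (0.38 ± 0.11 and 0.41 ± 0.11, limma adjusted p = 0.0115 and 0.00756), and the fed call was lost without fed polysome 2 (0.0523). Slc25a30, a kidney-type relative of the uncoupling proteins, was higher in polysome RNA by 0.48 ± 0.12 and 0.40 ± 0.12 (limma adjusted p = 0.00455 and 0.0135), and Slc25a25, an ATP-Mg/phosphate carrier, by 0.39 ± 0.10 and 0.31 ± 0.10 (limma adjusted p = 0.00713 and 0.0249). Neither overlapped between fractions. In fasted dams the call for Slc25a30 was lost without fasted total 1 (0.0669) or fasted polysome 3 (0.0638), and that for Slc25a25 without fasted total 2 (0.116), fasted total 3 (0.0535), fasted polysome 2 (0.0551) or fasted polysome 3 (0.0785).

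Slc25a42, the coenzyme A carrier, had the smallest difference among those called in both diets. It measured 9.57, 9.54 and 9.53 log2 in fed total and 9.80, 9.76 and 9.67 in fed polysome RNA, and 9.68, 9.74 and 9.57 in fasted total and 9.93, 9.87 and 9.85 in fasted polysome RNA. The differences were 0.20 ± 0.068 and 0.22 ± 0.068 (limma adjusted p = 0.0317 and 0.0209). The fed call was lost under 9 of 21 alternatives, among them quantile normalization (limma adjusted p = 0.0727) and removal of fed total 1 (0.0600), fed total 2 (0.0797), fed total 3 (0.0819), fed polysome 1 (0.0807) or fed polysome 2 (0.0823). The fasted call was lost with quantile normalization (0.0689) and without fasted total 3 (0.0883) or fasted polysome 1 (0.0693).

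Slc25a24, another ATP-Mg/phosphate carrier, had the largest difference in fasted dams but depended on its probe. On the brighter probe it measured 8.73, 8.76 and 8.73 log2 in fed total and 8.91, 9.59 and 9.05 in fed polysome RNA, and 8.88, 8.77 and 8.96 in fasted total and 9.44, 9.42 and 9.77 in fasted polysome RNA. Polysome RNA was higher by 0.44 ± 0.15 and 0.67 ± 0.15 (limma adjusted p = 0.0245 and 0.00222), and fed polysome 2 stood above the other fed arrays. The gene's other probe differed in the opposite direction, by -0.48 ± 0.13 in fed and -0.28 ± 0.13 in fasted dams. With the mean of both probes the fed difference was -0.02 log2 (limma adjusted p = 0.922) and the fasted one 0.20 (0.221). The fed call was also lost without any 1 of the fed total arrays (0.0502 to 0.0608) or fed polysome 2 (0.104), so the 2 probes give this gene no settled direction.

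Slc25a2 and Slc25a14 passed in fed dams alone. Slc25a2, the ornithine carrier, measured 6.69, 6.79 and 6.88 log2 in fed total RNA, below its fed polysome arrays (0.43 ± 0.12, limma adjusted p = 0.00931), whereas in fasted dams the fractions overlapped (-0.03 ± 0.12, limma adjusted p = 0.860). The test of that difference between diets is the difference of fasting effects above, which did not pass. Slc25a14, a brain-type relative of the uncoupling proteins close to the filter level, measured 5.88, 5.96 and 6.16 in fed total and 6.15, 6.36 and 6.31 in fed polysome RNA, which overlapped slightly (0.27 ± 0.092, limma adjusted p = 0.0290). Its call was lost when only the arrays compared were fitted (0.0538) and without fed total 1 (0.123), fed total 2 (0.0817), fed polysome 2 (0.107) or fed polysome 3 (0.0752).

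The 3 members called lower in polysome RNA, all in fed dams, were nucleotide and cofactor carriers. The role had no common direction. Of its 10 tested members, 3 were called higher in fed dams, and in fasted dams 3 were higher and 0 lower. Slc25a23, an ATP-Mg/phosphate carrier, measured 10.24, 10.55 and 10.43 log2 in fed total and 9.79, 9.73 and 9.44 in fed polysome RNA, the largest difference of any member (-0.75 ± 0.14, limma adjusted p = 0.000660). In fasted dams the total arrays read 9.90, 9.98 and 10.39 and the polysome arrays 9.76, 9.60 and 9.89, again without overlap (-0.34 ± 0.14, limma adjusted p = 0.0584). Its other probe was lower in polysome RNA too, by 0.33 in fed (-0.33 ± 0.14) and 0.35 in fasted dams (-0.35 ± 0.14). Slc25a5, the ADP/ATP carrier, measured 13.02, 13.03 and 13.04 in fed total and 12.83, 12.77 and 12.72 in fed polysome RNA (-0.26 ± 0.066, limma adjusted p = 0.00644). In fasted dams its total arrays, at 12.97, 12.97 and 12.90, overlapped the polysome arrays, at 12.91, 12.83 and 12.77 (-0.11 ± 0.066, limma adjusted p = 0.196).

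Slc25a17, the peroxisomal carrier, was lower in polysome than in total RNA of fed dams (-0.19 ± 0.067, limma adjusted p = 0.0338), and in fasted dams its fractions did not overlap either (-0.12 ± 0.067, limma adjusted p = 0.168). The fed call was lost under 8 of 21 alternatives, among them arrays centred on their median (0.0962), no filter (0.0600), only the arrays compared (0.0574) and removal of fed total 1 (0.110), fed total 2 (0.0734), fed total 3 (0.0527), fed polysome 1 (0.0630) or fed polysome 2 (0.0931). Slc25a3, the phosphate carrier, differed by 0.07 ± 0.066 and 0.10 ± 0.066 log2 and Slc25a4, an ADP/ATP carrier, by -0.06 ± 0.075 and -0.03 ± 0.075.

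Paired by replicate number, total and polysome arrays of a diet gave 6 differences per gene. In 14 of 32 members (43.8%) polysome RNA was higher in 6 of 6, beside 31.0% of all genes, and in 4 members (12.5%), Slc25a5, Slc25a17, Slc25a23 and Slc25a44, it was lower in 6 of 6, beside 22.1%. With the replicate number within each diet as a block, 17 members passed in fed dams, 13 higher and 4 lower, and 11 in fasted dams, 10 higher and 1 lower. The calls of all genes grew with the block too, to 2687 higher and 2184 lower in fed dams and 2844 higher and 2040 lower in fasted dams. In the blocked fit, Slc25a38, the glycine carrier, passed as higher in both diets (limma adjusted p = 0.0160 and 0.0293), as did the glutathione carrier Slc25a39 (0.0109 and 0.0363). In fed dams the block added Slc25a47 as higher (0.0417) and Slc25a40 as lower (0.0289), and in fasted dams Slc25a23 as lower (0.0232). RefSeq lists 8 pseudogene entries for Slc25a39. Across the 32 members the differences of the 2 diets correlated at r = 0.84, and across all genes at 0.91. The diets share no array, but both share the extraction contrast between fractions.

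The Slc25 genes were set beside other genes of membranes and mitochondria, described by counts. Of 183 other solute carriers tested, most of which are inserted into membranes at the endoplasmic reticulum, 77 were lower and 7 higher in polysome RNA of fed dams (median -0.19 log2), and 107 lower and 4 higher in fasted dams (median -0.31). The 4 higher in fasted dams were Slc35a4 and Slc35c2, Slc30a9, a zinc transporter, and Slc7a6os, a gene named for its place beside a transporter that the symbol rule also takes in. Of the 32 Slc25 genes, 3 were lower and 10 higher in fed dams, and 0 lower and 8 higher in fasted dams. The median of the other solute carriers stayed below 0 and that of the Slc25 genes above 0 with quantile normalization and with arrays centred on their median. Of 71 oxidative phosphorylation subunits 43 were higher and 8 lower in fed dams (median 0.39) and 50 higher and 4 lower in fasted dams (median 0.47). Of 68 mitochondrial ribosomal proteins 49 were higher and 2 lower in fed dams (median 0.37) and 54 higher and 0 lower in fasted dams (median 0.52). The Slc25 medians of 0.10 and 0.08 thus lay between those of the other solute carriers and those of the mitochondrial complexes. The medians of all genes (0.04 and 0.05) lay there too. So did those of 16 mitochondrial membrane transporters outside the Slc25 name (0.06 and 0.18), so this place is not particular to the family. No test was made of these differences between lists.

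**Figure D4:**
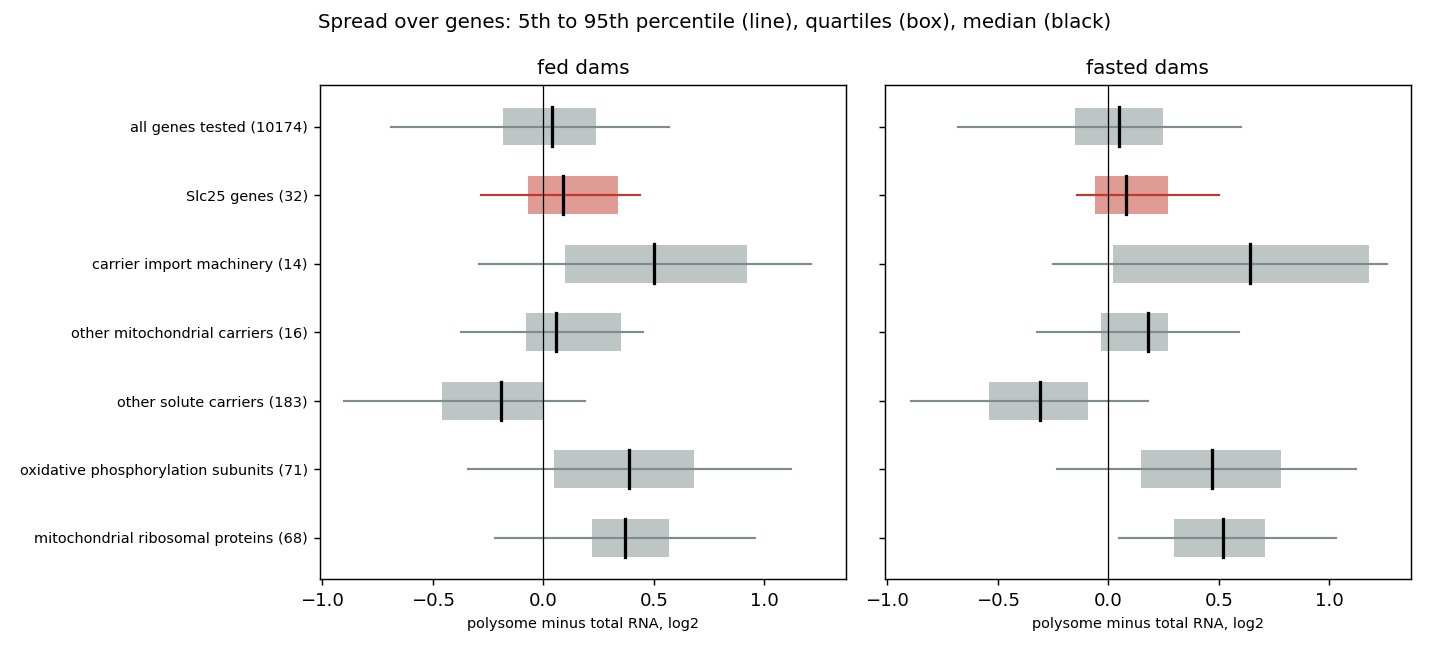
Polysome minus total RNA, in log2, over the genes of each list in fed (left) and fasted dams (right), with the number of genes tested in brackets; lines run from the 5th to the 95th percentile, boxes over the quartiles, and the black mark is the median. The Slc25 genes (red) have medians just above 0, the other solute carriers lie mostly below 0 and the import machinery mostly above 0.

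The proteins that import carriers were among those higher in polysome RNA. Of 14 tested members of the carrier import machinery, 10 were higher and 1 lower in each diet (medians 0.50 and 0.64 log2). The small TIM chaperones Timm13 (1.48 ± 0.086 in fed and 1.21 ± 0.086 in fasted dams), Timm8b (0.94 ± 0.089 and 1.25 ± 0.089) and Timm9 (0.81 ± 0.088 and 1.27 ± 0.088) and the TOM subunit Tomm7 (1.04 ± 0.079 and 1.21 ± 0.079) had the smallest p-values, and all had limma adjusted p at or below 1.551e-05. The lower member was Agk, a subunit of the TIM22 complex (-0.38 ± 0.088 and -0.31 ± 0.088, limma adjusted p = 0.00366 and 0.0115). With fasting 0 of the 14 passed limma's test in either fraction. At an unadjusted p under 0.05 there were 3 in total and 1 in polysome RNA, beside 16.2% and 20.9% of all genes. Of 16 tested mitochondrial membrane transporters outside the Slc25 name, 6 were higher and 2 lower in polysome RNA of fed dams and 7 higher and 2 lower in fasted dams. Mpc2, a subunit of the pyruvate carrier, was higher by 0.44 ± 0.088 and 0.89 ± 0.088 (limma adjusted p = 0.00137 and 7.25e-06), and Mtch1, a carrier relative in the outer membrane, by 0.47 ± 0.092 and 0.49 ± 0.092 (limma adjusted p = 0.00114 and 0.000805). The lower members were the sideroflexins Sfxn2 and Sfxn3. Sfxn2 was lower by 0.66 in fed (-0.66 ± 0.10, limma adjusted p = 0.000203) and by 0.56 in fasted dams (-0.56 ± 0.10, limma adjusted p = 0.000653), and Sfxn3 by 0.28 (-0.28 ± 0.072, limma adjusted p = 0.00692) and 0.24 (-0.24 ± 0.072, limma adjusted p = 0.0151). With fasting, Letm1, an ion exchanger of the inner membrane, fell by 0.46 in polysome RNA (-0.46 ± 0.080, limma adjusted p = 0.0199), the 1 called gene of this list.

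Markers of cells other than hepatocytes also differed between the fractions. Macrophage markers summed to 12.06 to 12.39 log2 in total and 11.39 to 11.70 in polysome RNA, and endothelial markers to 12.12 to 12.38 and 11.53 to 11.79. Of the 6 macrophage markers, 5 were lower in polysome RNA of fed dams and 6 in fasted dams, and of the 5 endothelial markers 4 and 5 were lower. Hepatocyte markers, of which 4 of 8 were lower in fed and 5 of 8 in fasted dams, had medians of -0.16 and -0.18 log2. Neutrophil markers went both ways: S100a8 (1.06 and 1.43) and S100a9 (0.83 and 1.09) were higher in polysome RNA of fed and fasted dams, Ngp (-1.47 and -0.98) and Mpo (-0.58 and -0.54) were lower in both, and Elane was lower in fed dams (-0.60). Among megakaryocyte markers Pf4 was higher in fed dams (0.65), while Ppbp (-0.30) and Gp9 (-0.10) lay below 0 without passing. Among pancreatic markers Cpa1 was lower in fed dams (-1.79). Ctrb1 (-0.91), Cpb1 (-0.41) and Cela1 (0.15) did not pass there. In fasted dams Cpb1 was lower (-1.08), while Ctrb1 (0.69), Cpa1 (0.32) and Cela1 (0.13) lay above 0 without passing. Of 9 red cell precursor markers 2 were higher and 2 lower in fed dams and 1 higher and 2 lower in fasted dams. The part of these cells in the polysome values of the carriers was not tested.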

How the data were processed

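Fetal rat liver RNA was measured on 12 arrays in 4 groups of 3. The deposited table gives 1 intensity per probe and array, and the submitters' processing notes name RMA without a version. The values run from 3.62 to 21344, a linear scale by their range, so log2(value + 1) was taken. RMA scales arrays to each other, so changes are relative to the other messages.

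Of 28826 probes, the platform table linked 15209 to 1 gene symbol and 306 to several, and 13311 were not listed; current names were found for 15178 through Entrez identifiers. The probe with the highest mean over all arrays stood for a gene. Genes under the 40th percentile of mean level (6.07 log2) were not tested.

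A cell means model of all 12 arrays was fitted with limma 3.58.1 in R 4.3.3 (lmFit, eBayes; residual degrees of freedom 8, prior 5.16), and 5 contrasts were tested, two-sided, with Benjamini-Hochberg adjustment over 10174 genes and a threshold of 0.05. The fit was tested on simulated data. Replicate numbers were checked by correlating deviations from group means. Within a diet, a total and a polysome array of equal number correlated at 0.15 to 0.36 in 6 of 6 pairs and were taken as paired, an inference from the data. Fed and fasted arrays with equal numbers correlated at -0.14 to 0.25 and were not. The main fit did not use the pairing and treated all 12 arrays as unpaired. The pairing entered the 6 differences per gene and the replicate block. Members described with values are those called in any contrast, the 3 with the largest change in each contrast, and carriers chosen by role; the rest are given by range and count. Members, lists and tests were chosen with earlier results of these data known. Marker sums are log2 of summed intensities. Figures used Python 3.11.15 and matplotlib 3.10.9.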

Additional observations from a re-analysis of the deposited data

How the results depend on the processing

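The count of members called was recomputed without the filter, with quantile normalization, with arrays centred on their median, with the mean of a gene's probes, with log2 of the value alone, with trend and robust priors, on only the arrays compared, with a replicate block, without fed polysome 1 and fasted polysome 2, and without each array in turn. For fasting in total RNA the count of 0 became 1 with trend and robust priors (Slc25a15) and 1 without fed polysome 1 and fasted polysome 2 (Slc25a17), and leaving out single arrays gave 0 to 1. For fasting in polysome RNA the count of 1 became 2 with trend and robust priors, 0 on only the arrays compared and 4 without fed polysome 1 and fasted polysome 2, and leaving out single arrays gave 0 to 2. The replicate block stood for 2 models. For the fasting effects it was an effect per replicate number shared by both diets, although equal numbers were not taken as paired between diets. That model gave 0 and 1 members for fasting in total and polysome RNA. For the other contrasts it was an effect per diet and number. This gave 0 members for the difference between fasting effects. For polysome against total RNA it gave 17 in fed and 11 in fasted dams. Neither model ended a call of the unblocked fit. The difference between fasting effects stayed at 0 under every alternative run for it, and the polysome counts stayed within 1.5 times their value under all alternatives. Among the 22 differences that passed, 1 turned its sign, that of Slc25a24 in fed dams, at -0.02 log2 with the mean of its probes, whose construction averages 2 probes of opposite sign. Of 138 that did not pass, 48 turned their sign under some alternative, none larger than 0.09 log2 in size. The cause of the other changes was not tested.

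With 3 arrays per group, the SE of a member's change rests on few arrays. Slc25a14 and Slc25a34 lie close to the filter level. Slc25a1, Slc25a23, Slc25a24 and Slc25a51 have a second probe, and that of Slc25a51 measured -0.44 ± 0.14 log2 for fasting in total RNA against -0.13 ± 0.13 for the probe used.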
